A study of Homo sapiens with 6 samples.

Results

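The sterol synthesis enzymes were the genes HMGCS1, IDI1, FDPS, FDFT1, SQLE, LSS, EBP, MSMO1 and DHCR7, taken by symbol from the array annotation, where MSMO1 appears under its older symbol SC4MOL. Of these 9 enzymes, 8 had a row with 1 gene symbol, each in exactly 1 row of the 18708 transcript clusters on the array. SQLE was not analysed here. Cells of PLC/PRF/5, an established human hepatocellular carcinoma line, were grown in DMEM with 10% FCS, transfected with RNAiMAX reagent and harvested 48 h later. One group of 3 arrays received an siRNA without a relevant target (siGL), and the other group of 3 arrays received siRNAs against SLU7, a factor of the second step of pre-mRNA splicing. All arrays share the line, the serum and the transfection, and the labels do not say whether replicates were separate cultures, so the p-values describe only the spread among these arrays, which could be technical.

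Cells make cholesterol from acetyl-CoA through mevalonate, which is turned into isoprenoid units. These are joined into farnesyl diphosphate and squalene, and squalene is closed into lanosterol, whose ring is then demethylated, isomerised and reduced to cholesterol. The genes of the pathway are induced together by the transcription factor SREBP-2 when sterols in the endoplasmic reticulum are low, and the liver is a main site of this synthesis. The farnesyl diphosphate made midway also feeds protein prenylation, dolichol and ubiquinone.

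SLU7 itself read 7.89, 7.01 and 7.24 log2 units in control replicates 1 to 3 and 5.84, 5.58 and 6.21 in SLU7 replicates 1 to 3. The groups did not overlap, and the difference was -1.51 ± 0.31 (SE) log2 units with a limma adjusted p of 0.078, outside the threshold of 0.05. A pair of arrays, 1 from each group, separated from the remaining 4 along principal component 1 (36.6% of the variance): control replicate 2 scored 61.7 and SLU7 replicate 1 scored 49.5, against -37.4 to -17.9. The enzymes' differences are therefore also given inside that pair and in the other 4 arrays. Of 9 hepatocyte markers, 8 were measured, with an average level of 7.96 to 8.20 log2 units over the control arrays and 7.33 to 7.65 over the SLU7 arrays, and the means of ALB and SERPINA1 over all 6 arrays lay below the lower quartile of the arrays (4.86 to 4.98). The averages over 7 blood and endothelial markers (5.21 to 5.40 in control arrays, 5.14 to 5.39 in SLU7 arrays) and over 7 fibroblast and stellate markers (4.60 to 4.71 and 4.45 to 5.07) overlapped between groups. No marker of these lists was called, and 4 of the 8 hepatocyte markers and 1 of the 7 blood and endothelial markers (CDH5) were lower without overlap, beside 9.21% of all clusters. The lower average of the hepatocyte markers stands beside the sterol differences below, and its part in them was not tested. In RNA from whole cultures, fewer cells of a kind and less RNA per cell cannot be told apart.

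After SLU7 siRNA, 7 of the 8 measured enzymes had a negative log2 difference and 1, IDI1, a positive one. The median over the 8 was -1.09 log2 units, beside 0.0043 over all clusters. No enzyme passed the limma test at an adjusted p under 0.05 in either direction, where 0.299% of all clusters were called lower and 0.134% higher. At an unadjusted limma p under 0.05, 5 enzymes were lower (HMGCS1, FDPS, MSMO1, EBP and DHCR7) and 1 was higher (IDI1), where 6.54% of all clusters were lower and 6.55% higher. The 3 arrays of each group lay apart for 4 enzymes with lower values (HMGCS1, MSMO1, EBP and DHCR7), against 9.21% of all clusters, and for 1 with higher values (IDI1), against 9.64%. The enzymes were listed with earlier results of these data known, so these counts describe them and are no independent test. The median was -1.04 inside the pair of arrays that stands apart and -1.02 in the other 4.

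**Figure D1:**
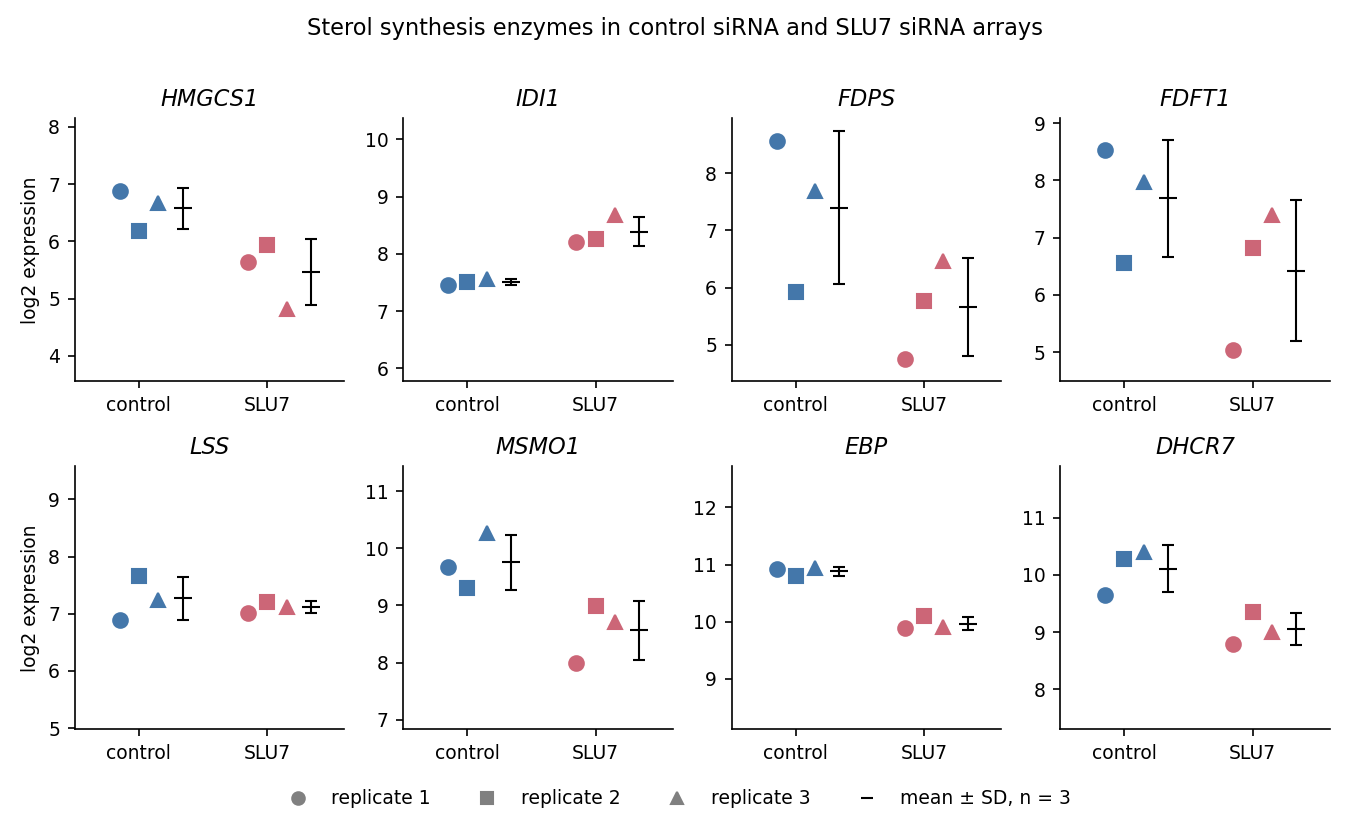
Log2 expression of 8 sterol synthesis enzymes in 3 control siRNA arrays (blue) and 3 SLU7 siRNA arrays (red), with the mean and SD of each group in black; the vertical axis spans the same number of log2 units in every panel. EBP and IDI1 have tight groups that lie apart (EBP 10.79 to 10.94 against 9.90 to 10.10), FDPS and FDFT1 spread widely within each group, and LSS overlaps.

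The promoters of the 5 enzymes whose groups lay apart are shown because these genes are known to share the regulator SREBP-2 while IDI1 differed in direction from the others. RefSeq windows of 250 bases before a gene start (GRCh38.p14) were matched for 7 of the 8 measured enzymes, with 11 windows in all. The windows printed are those of HMGCS1 (chr5:43313413-43313662, minus strand), MSMO1 (chr4:165327419-165327668, plus strand), EBP (chrX:48521558-48521807, plus strand), DHCR7 (chr11:71448394-71448643, minus strand) and IDI1 (chr10:1048887-1049136, minus strand). Where a gene has several starts, the window with the most matches is printed. Each is written 5′ to 3′ on the strand of its gene, and capitals mark CCAAT or its reverse complement ATTGG, the letters read by the factor NF-Y, which acts beside SREBP at several sterol genes.
HMGCS1: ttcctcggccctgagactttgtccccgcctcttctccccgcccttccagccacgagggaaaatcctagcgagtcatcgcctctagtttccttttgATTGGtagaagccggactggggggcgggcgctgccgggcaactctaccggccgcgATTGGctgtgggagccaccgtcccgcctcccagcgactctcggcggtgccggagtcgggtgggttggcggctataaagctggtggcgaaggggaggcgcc
MSMO1: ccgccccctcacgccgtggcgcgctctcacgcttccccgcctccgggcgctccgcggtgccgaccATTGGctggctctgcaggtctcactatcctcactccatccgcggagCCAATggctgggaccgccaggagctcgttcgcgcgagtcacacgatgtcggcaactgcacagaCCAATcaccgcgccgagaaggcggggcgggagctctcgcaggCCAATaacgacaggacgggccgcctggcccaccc
EBP: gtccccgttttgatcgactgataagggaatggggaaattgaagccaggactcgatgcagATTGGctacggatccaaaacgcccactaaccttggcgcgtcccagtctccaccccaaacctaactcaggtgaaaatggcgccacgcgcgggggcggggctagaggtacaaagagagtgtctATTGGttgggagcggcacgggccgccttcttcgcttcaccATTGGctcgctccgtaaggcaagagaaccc
DHCR7: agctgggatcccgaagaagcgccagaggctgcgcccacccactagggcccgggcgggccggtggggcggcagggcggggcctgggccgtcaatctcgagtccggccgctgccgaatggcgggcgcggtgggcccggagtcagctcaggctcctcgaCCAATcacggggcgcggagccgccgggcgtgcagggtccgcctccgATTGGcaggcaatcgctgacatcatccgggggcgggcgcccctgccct
IDI1: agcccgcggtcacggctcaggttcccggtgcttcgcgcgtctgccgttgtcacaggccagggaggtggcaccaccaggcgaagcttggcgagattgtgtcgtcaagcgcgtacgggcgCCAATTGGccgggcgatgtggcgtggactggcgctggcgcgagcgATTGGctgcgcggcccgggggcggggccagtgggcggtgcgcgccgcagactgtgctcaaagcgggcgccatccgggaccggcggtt

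CCAAT was found on 1 strand or the other in at least 1 window of all 7 matched enzymes, beside 37.0% of the 27305 genes in the RefSeq table. At least 2 matches stood in 1 window for 6 of the 7, beside 11.5% of genes, the exception being LSS with 1. MSMO1 held 4 matches and EBP and FDPS 3 each, and in IDI1 a pair of the 3 matches overlap as a palindrome. By window rather than gene, 8 of 11 held the motif, beside 32.0% of all windows. The GC box GGGCGG, read by Sp1 and common in promoters rich in G and C, was found in all 7 genes (46.2% of all genes) and in 10 of 11 windows (42.6%). The sterol regulatory element searched as TCACNCCAC (reverse complement GTGGNGTGA) was in none of the 11 windows, beside 1.09% of genes, which says only that these letters are absent from these 250 bases. Matches describe the sequence and do not show that a factor binds there. The 3 windows of IDI1 held 0, 3 and 2 CCAAT matches, and MSMO1 and EBP have 1 window each, so the counts are not alike. A window without a match was not particular to IDI1: HMGCS1 and DHCR7, both lower, each had 1 window with 2 matches and 1 with 0. Such counts by window describe the sequence only. Whether they bear on the direction of IDI1 was not tested.

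In the early part of the pathway the 3 measured enzymes went in different directions. HMGCS1, the cytosolic synthase that makes HMG-CoA ahead of mevalonate, read 6.88, 6.19 and 6.68 log2 units in control replicates 1 to 3 and 5.63, 5.93 and 4.82 in SLU7 replicates 1 to 3. All SLU7 arrays were below all control arrays, by a gap of 0.25 log2 units, and SLU7 replicate 3 was the lowest. Its mean went from 6.58 ± 0.36 (SD, n = 3) to 5.46 ± 0.58 (SD, n = 3), a difference of -1.12 ± 0.35 (SE) log2 units or 2.17-fold lower (95% interval 1.25 to 3.79), with a limma adjusted p of 0.208.

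IDI1, the isomerase that balances the pair of isoprenoid building blocks, was the enzyme with the opposite sign. Its control arrays were nearly identical at 7.46, 7.51 and 7.56 log2 units, and its SLU7 arrays read 8.21, 8.26 and 8.68. The groups lay apart by 0.65 log2 units, beside an SD of 0.05 in the control arrays and 0.25 in the SLU7 arrays. The difference was 0.87 ± 0.25 (SE) log2 units, or 1.83-fold higher (95% interval 1.24 to 2.71), and the limma adjusted p was 0.166. Its paralog IDI2 was dim in both groups (3.36 ± 0.50 and 4.02 ± 0.70 log2 units, SD, n = 3), which leaves its difference of 0.66 uncertain. RefSeq lists 3 pseudogenes named after IDI1, whose share in its signal is not known.

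FDPS, which joins isoprenoid units into farnesyl diphosphate at the branch point to prenylation, had the most negative difference of the 8 and among the widest spreads. Control replicates 1 to 3 read 8.57, 5.93 and 7.69 log2 units, and SLU7 replicates 1 to 3 read 4.75, 5.76 and 6.47. Control replicate 2 lay inside the range of the SLU7 arrays, so the groups overlapped. The difference was -1.74 ± 0.67 (SE) log2 units, or 3.34-fold lower with a 95% interval from 1.15 to 9.67, and the limma adjusted p was 0.313. It was -1.15 without control replicate 1 and -2.47 without control replicate 2. An exact two-sided permutation test over the 6 arrays gave p = 0.2, where 0.1 is the smallest value that 3 arrays against 3 allow and the value reached by HMGCS1, IDI1, MSMO1, EBP and DHCR7. RefSeq lists 10 FDPS pseudogenes, so some of this signal may come from copies.

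FDFT1, squalene synthase, commits farnesyl diphosphate to sterols. It read 8.54, 6.56 and 7.97 log2 units in control replicates 1 to 3 and 5.04, 6.82 and 7.40 in SLU7 replicates 1 to 3, so that control replicate 2 lay below 2 of the SLU7 arrays. Its difference of -1.27 ± 0.67 (SE) log2 units had a 95% interval from -2.81 to 0.27 and a limma adjusted p of 0.495, and a difference was not detectable with this spread. It was -0.58 without SLU7 replicate 1 and -1.83 without control replicate 2.

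None of the 4 enzymes that build and process the sterol ring was called, and 3 were lower without overlap, beside 9.21% of all clusters. LSS, lanosterol synthase, which closes the ring, was the exception: control replicates 1 to 3 read 6.90, 7.66 and 7.25 log2 units and SLU7 replicates 1 to 3 read 7.01, 7.21 and 7.13. The SLU7 arrays lay inside the control range, the difference was -0.15 ± 0.27 (SE) log2 units (95% interval -0.78 to 0.47), and the limma adjusted p was 0.904. Its sign turned to 0.04 without control replicate 2. Its interval does not reach the median of the 8 enzymes, -1.09. That median includes LSS and carries no error, so this describes the values and is no test.

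MSMO1, the oxidase that starts removal of the methyl groups at carbon 4, read 9.68, 9.31 and 10.27 log2 units in control replicates 1 to 3 and 7.996, 8.998 and 8.71 in SLU7 replicates 1 to 3. Every SLU7 array was below every control array, with 0.31 log2 units between the nearest of them. The difference was -1.19 ± 0.36 (SE) log2 units or 2.27-fold lower (95% interval 1.29 to 4.02; limma adjusted p 0.192).

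EBP, the isomerase that moves a double bond of the sterol ring, had the tightest groups. It read 10.91, 10.79 and 10.94 log2 units in control replicates 1 to 3 and 9.90, 10.10 and 9.91 in SLU7 replicates 1 to 3. The gap between groups was 0.70 log2 units, while the arrays of a group differed by at most 0.20, and only 1.24% of all clusters had a smaller spread within groups. The difference was -0.91 ± 0.23 (SE) log2 units, or 1.88-fold lower (95% interval 1.30 to 2.72). EBP had the lowest adjusted p of the 8 enzymes, 0.131 with limma, and it passed when clusters dimmer than the median were left out (adjusted p = 0.036) or when an intensity trend was fitted together with robust shrinkage (0.037).

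DHCR7, the reductase of the last step to cholesterol, read 9.64, 10.28 and 10.40 log2 units in control replicates 1 to 3 and 8.80, 9.35 and 8.998 in SLU7 replicates 1 to 3. The groups lay apart by 0.29 log2 units, with a difference of -1.06 ± 0.30 (SE) log2 units or 2.08-fold lower (95% interval 1.30 to 3.35; limma adjusted p 0.164).

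Early and late steps did not part as groups. The mean over the early enzymes HMGCS1, IDI1 and FDPS differed by -0.66 log2 units and the mean over the late enzymes LSS, MSMO1, EBP and DHCR7 by -0.83, so that late minus early was -0.17. Per array, late minus early was 1.64, 2.97 and 2.40 log2 units in control replicates 1 to 3 and 2.23, 2.26 and 2.03 in SLU7 replicates 1 to 3, and the SLU7 values lay inside the control range. This contrast turned with the members and arrays that entered: it was 0.60 when IDI1 was left out, 0.38 without IDI1 and LSS, -0.70 without FDPS, 0.15 without control replicate 2, -0.74 inside the pair and 0.12 in the other 4 arrays. Each part held 1 enzyme unlike its neighbours, IDI1 among the early ones and LSS among the late ones.

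FDPS and FDFT1, which act one after the other, followed the split between arrays more than the other enzymes. Control replicate 2 minus the mean of the other controls was -2.20 log2 units in FDPS and -1.70 in FDFT1, and SLU7 replicate 1 stood at -1.36 and -2.07 against the other SLU7 arrays. Their spread within groups exceeded that of 98.4% of all clusters for both. ACAT2, the cytosolic thiolase that makes acetoacetyl-CoA at the start of the pathway, had the same shape with 8.84, 5.16 and 7.20 log2 units in control replicates 1 to 3 and 4.60, 6.49 and 6.84 in SLU7 replicates 1 to 3. For IDI1, EBP and DHCR7 the shift of control replicate 2 was at most 0.26 log2 units. The differences of HMGCS1, FDPS and LSS were -0.55, -1.18 and -0.65 inside the pair and -1.40, -2.02 and 0.10 in the other 4 arrays, while EBP gave -0.89 and -0.92. IDI1 gave 0.70 and 0.96, FDFT1 -1.52 and -1.14, MSMO1 -1.32 and -1.12, and DHCR7 -1.49 and -0.85. SLU7 replicate 1 held the lowest value of 5 of the 8 enzymes, and what sets these 2 arrays apart was not tested.

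**Figure D2:**
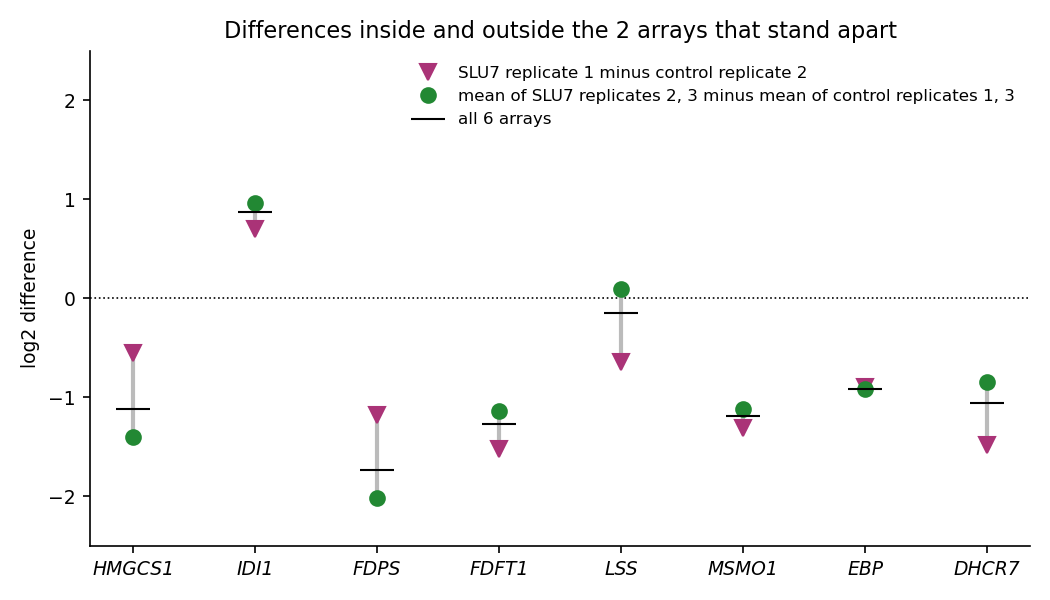
Log2 difference of each enzyme inside the 2 arrays that stand apart (triangles, 1 array minus 1 array, so without an error), in the other 4 arrays (circles) and over all 6 (bars). The 2 estimates meet for EBP (-0.89 and -0.92) and keep their sign for every enzyme shown except LSS (-0.65 and 0.10).

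With the pair of arrays entered as a block, FDPS, MSMO1 and EBP passed the limma test (adjusted p = 0.049, 0.046 and 0.043), along with 426 lower and 357 higher clusters. The block was read from these same arrays, so its p-values are likely too small. In the other 4 arrays alone none passed, nor without any 1 of the 6 arrays, where no cluster of the table was called (1833 to 2573 clusters at an unadjusted limma p under 0.05).

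The other enzymes of the pathway, from lists drawn up by textbook membership, had medians nearer 0. The enzymes described above and these lists were chosen with earlier results of these data known, so this contrast is no independent test. Of 6 other mevalonate and isoprenoid enzymes, 5 were measured, with 3 below 0, a median of -0.04 log2 units and none called. MVD, which decarboxylates mevalonate diphosphate just ahead of IDI1, read 7.73, 8.13 and 8.28 log2 units in control replicates 1 to 3 and 6.88, 7.39 and 7.36 in SLU7 replicates 1 to 3, apart without overlap (difference -0.84 ± 0.28 SE, limma adjusted p 0.231). MVK, mevalonate kinase, had a difference of 0.43 ± 0.26 (SE) log2 units (limma adjusted p 0.567). Its groups lay apart upward by only 0.03 log2 units, beside 9.64% of all clusters apart upward.

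Of 7 other sterol ring enzymes, 5 were measured, all 5 were below 0 with a median of -0.41 log2 units, and none was called. TM7SF2, a sterol C-14 reductase, came closest to the threshold of all enzymes in the pathway. It read 9.62, 9.90 and 10.17 log2 units in control replicates 1 to 3 and 8.56, 8.23 and 8.16 in SLU7 replicates 1 to 3, a difference of -1.58 ± 0.26 (SE) or 2.99-fold lower, with a limma adjusted p of 0.0515. LBR, the lamin B receptor, which carries the same reductase activity, had a difference of -0.41 ± 0.25 (SE) (limma adjusted p 0.561). Its groups lay apart by only 0.05 log2 units, beside 9.21% of all clusters apart downward. CYP51A1, the lanosterol demethylase, had a difference of -0.47 ± 0.31 (SE) with groups that overlapped.

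**Figure D3:**
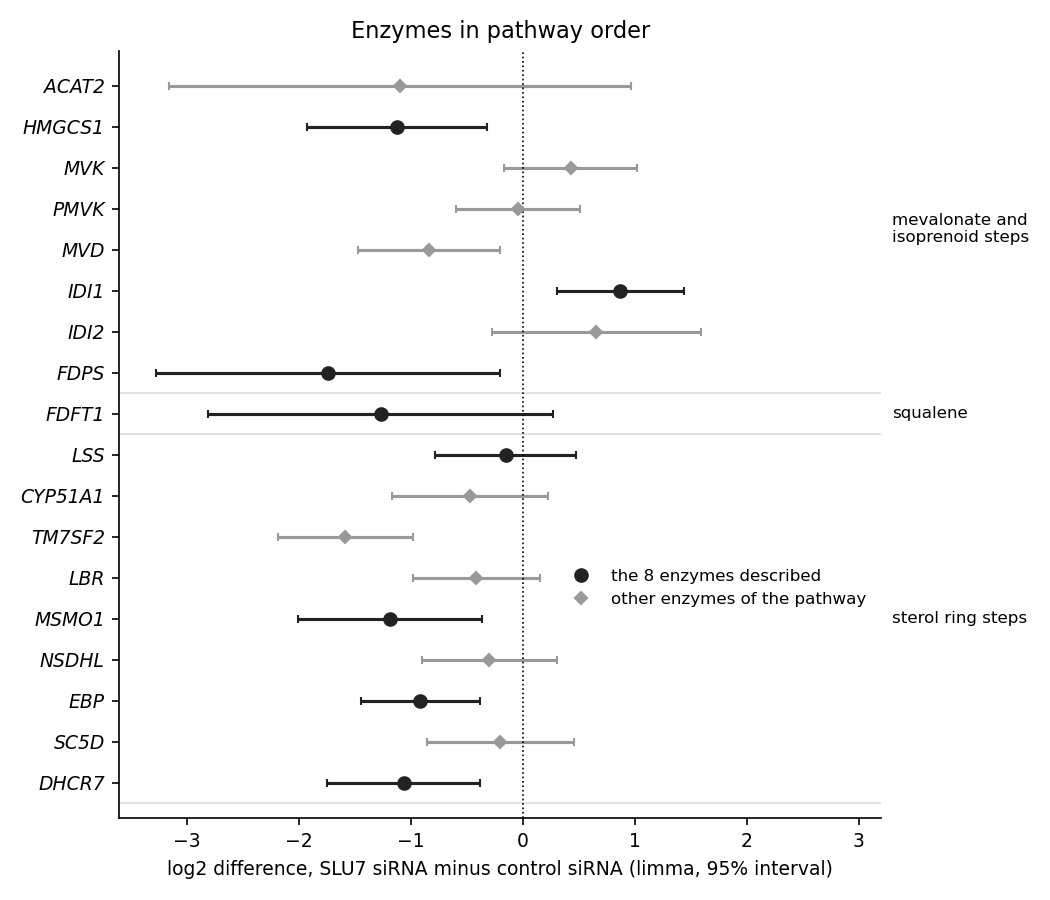
Log2 differences between SLU7 siRNA and control siRNA, with 95% intervals from limma, for the 8 enzymes (circles) and the other measured enzymes (diamonds) in the order of the pathway from top to bottom. Lower values stand in both the early and the late part, between enzymes near 0 such as PMVK (-0.04) and LSS (-0.15), and IDI1 is the 1 of the 8 above 0 (0.87).

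Of 10 enzymes of prenylation, dolichol and ubiquinone synthesis, the branches that use farnesyl diphosphate, 9 were measured and 7 were above 0. Their median was 0.15 log2 units, and none was called. This list too was chosen with earlier results known. FNTA and FNTB, the subunits of protein farnesyltransferase, differed by 0.66 ± 0.32 (SE) and 0.54 ± 0.27 (SE) log2 units (limma adjusted p 0.443 and 0.452). FNTB had groups apart, beside 9.64% of all clusters apart upward. DHDDS, a subunit of the dolichol synthase, differed by -0.32 ± 0.25 (SE).

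Among 9 measured of 11 genes of sterol sensing and uptake, all 9 were below 0 with a median of -0.24 log2 units, and INSIG1, which holds SREBP back when sterols are high and is itself an SREBP target, was the 1 that passed, beside 0.299% of all clusters called lower: it fell from 9.11, 8.10 and 8.80 log2 units in control replicates 1 to 3 to 6.32, 6.91 and 6.70 in SLU7 replicates 1 to 3 (-2.03 ± 0.33 SE, limma adjusted p 0.0487). INSIG1 lost this call when any 1 array was left out and under the replicate block, where no cluster passed. Its relative INSIG2 differed by -1.51 ± 0.31 (SE) log2 units (limma adjusted p 0.075) and SREBF2, the gene of SREBP-2, by -0.70 ± 0.25 (SE; 0.284).

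In sterol export, esterification and LXR signalling, 9 of 10 genes were measured, 7 were below 0, the median was -0.22 log2 units and none was called. SOAT1, which esterifies cholesterol, differed by -1.18 ± 0.41 (SE) log2 units with groups that overlapped. NR1H3, the oxysterol receptor LXR-alpha, and CYP27A1, which makes an oxysterol on the way to bile acids, differed by -0.91 ± 0.32 (SE) and -0.86 ± 0.31 (SE). Both had groups apart, beside 9.21% of all clusters apart downward, with limma adjusted p of 0.272 and 0.274.

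The average profile of the 8 enzymes, each centred on its own mean, was 0.58, 0.04 and 0.61 log2 units in control replicates 1 to 3 and -0.82, -0.18 and -0.23 in SLU7 replicates 1 to 3. Over these 6 arrays the genes most like it, of 8420 clusters with 1 symbol, outside the lists and brighter than the median cluster, were HSDL2 (r = 0.997), PI4K2B (0.996), PPP1CB (0.996), ACSS2 (0.995) and LYZ (0.995). With 6 points and that many clusters, high correlations are easily found, and they share both the group difference and the split between arrays. Among these, ACSS2 makes acetyl-CoA from acetate, the carbon source of sterols and fatty acids, and its own difference was -1.13 ± 0.36 (SE) log2 units (limma adjusted p 0.211).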

How the data were processed

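RNA of each of the 6 samples was read on its own Affymetrix exon array (Human Exon 1.0 ST). Per the labels, the deposited log2 values came from the core chip definition of aroma.affymetrix, and per the submitters' processing notes the authors used RMA. Which genome build the authors' cluster annotation used is not given here. One value per transcript cluster hides exon use, so a splicing change can appear as a change in level. Depth does not apply to arrays, and their number limits precision (median SE of a difference 0.312).

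Symbols were updated through RefSeq (GRCh38.p14). Groups were compared with limma 3.58.1 in R 4.3.3 (lmFit, eBayes, group only, no filter), with Benjamini-Hochberg adjustment over all 18708 clusters. The limma fit was tested on simulated data, in 20 simulations with 200 changed clusters each. It recovered 43.7% of changes of 2 log2 units but only 0.9% of changes of 1 log2 unit. A missing call at a difference near 1 log2 unit therefore says little. The simulated arrays were drawn independently, so they lack the split between arrays seen in the data. The recovered shares are averages over clusters of every spread, and they are not the share for a given enzyme. Folds are antilogs of log2 differences. Named genes were SLU7, the enzymes, up to 3 genes per other list by the smallest p (ACAT2 and PMVK were named after their values were seen) and the 5 most alike. The enzymes and lists were chosen with earlier results of these data known. Alternatives were a replicate block, array weights, an intensity trend with robust shrinkage, median centring, quantile normalization, a filter on dim clusters, a block for or removal of 2 arrays, leaving out each array and other members in the early and late contrast, of which the last were partly chosen after seeing the data.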

Additional observations from a re-analysis of the deposited data

How the results depend on the processing

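No alternative changed the sign of HMGCS1, IDI1, FDPS, FDFT1, MSMO1, EBP or DHCR7, and the median of the enzymes stayed between -1.28 and -0.89 log2 units. Some alternatives could not turn a sign. Both blocks, the trend with shrinkage and the filter on dim clusters leave the log2 difference of each enzyme they keep unchanged. LSS turned positive in the 4 arrays other than the pair that stands apart (0.0954), and leaving out 1 array in turn it ran from -0.34 to 0.043. No enzyme was called higher under any setting. Called lower were 1 without the dimmer clusters, 1 with an intensity trend and robust shrinkage (EBP in both) and 3 with the pair as a block. SLU7 passed without the dimmer clusters (-1.51, adjusted p = 0.021), with the trend and shrinkage (-1.51, 0.033), with array weights (-1.61, 0.027) and with the pair as a block (-1.51, 0.043). Among all clusters, 25 were higher and 56 lower. These counts became 196 and 278 without the dimmer clusters, 173 and 268 with the trend and shrinkage, 221 and 354 with array weights, and 357 and 426 with the pair as a block. They were 0 and 0 in the 4 other arrays (2922 at an unadjusted limma p under 0.05) and from 0 to 0 leaving out each array, and the cause was not tested. The late minus early contrast of -0.17 was 0.38 without IDI1 and LSS, -0.70 without FDPS and 0.60 without IDI1, all chosen after seeing the data, and -0.25 with FDFT1 counted as late. Each enzyme had a single row, so an average over rows was not run, and the filter on dim clusters removed HMGCS1 and FDPS, so it gave no late minus early contrast.

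Deviations of same-numbered arrays correlated at -0.38, -0.31 and 0.14 for replicates 1 to 3, and control replicate 2 correlated best with SLU7 replicate 1 (0.52). These correlations include the split between arrays, so they cannot show whether same-numbered samples shared a culture, which the labels do not say. With the replicate block 0 clusters were higher and 0 lower (limma, 1845 at an unadjusted p under 0.05), no enzyme was called, and the median of the enzymes stayed at -1.09 as the design is balanced.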
